A study of Mus musculus with 45 samples.

Results

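Sorted tuft cell libraries differed widely in how much tuft cell RNA they held, and the libraries with the most were compared here with those with the least. All 45 labelled libraries entered, each from the sorted small intestinal cells of 1 mouse. A tuft score was computed for each library as the mean log2(TPM + 1) of Dclk1, Trpm5, Avil and Pou2f3, where TPM is a transcript abundance scaled by length and depth. In each of the 4 groups of diet and library set, libraries above the group median were called tuft-rich and those below it tuft-poor. This gave 21 tuft-rich and 21 tuft-poor libraries, and the 3 libraries that were themselves the median of their group were dropped. The libraries were thus chosen by the measured levels of these 4 genes, which were left out of the gene results and not tested one by one. Their mean, the score, was compared between diets and checked for outliers among libraries.

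Tuft cells are rare chemosensory cells of the intestinal epithelium. They detect luminal compounds through taste receptors and a phospholipase C and TRPM5 cascade, and they release IL-25, leukotrienes, prostaglandins and acetylcholine that set type 2 immunity in motion. Their formation requires the transcription factor POU2F3. The crypts of this epithelium also hold dividing progenitors, LGR5-positive stem cells and Paneth cells, which secrete defensins and lysozyme.

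The mice were male C57BL/6J, 5 weeks old at arrival and kept at thermoneutrality, on a reference diet (RFD) with 10% of energy from fat or a high-fat diet (HFD) with 60%. The labels divide the libraries into the sets STF and LTF and give 9 weeks of feeding for all 45, while the study describes feeding for 9 and 22 weeks, so the sets keep their label names here. There were 5 tuft-rich and 5 tuft-poor libraries in each of STF_RFD, STF_HFD and LTF_RFD, and 6 and 6 in LTF_HFD. Live cells positive for EpCAM and Siglec-F were sorted. The methods write the gate as CD45+ and also describe CD45 as a means of leaving M cells out, and which of these was applied could not be settled. Libraries were not allocated to rich or poor, and the p-values below describe an association across libraries. Fewer tuft cells in a sort and less tuft RNA per cell cannot be told apart in these bulk libraries.

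Scores separated the libraries by very different distances in the 4 groups. On RFD the STF scores were 8.71 to 9.18 in tuft-rich libraries and 5.42 to 8.18 in tuft-poor ones, on either side of a median of 8.56. On HFD the STF scores were 7.56 to 9.17 and 1.49 to 5.61, with 7.32 at the median. The LTF scores on RFD were 8.62 to 8.98 and 6.64 to 8.56, so that the nearest rich and poor libraries lay close to the median of 8.59. In LTF_HFD they were 8.45 to 8.84 and 4.03 to 8.23. A library called rich in STF_HFD could therefore score below a library called poor in another group. The lowest score, 1.49, belonged to mouse 80 of STF_HFD, which had 30 reads of Dclk1 and no read of Pou2f3.

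**Figure D1:**
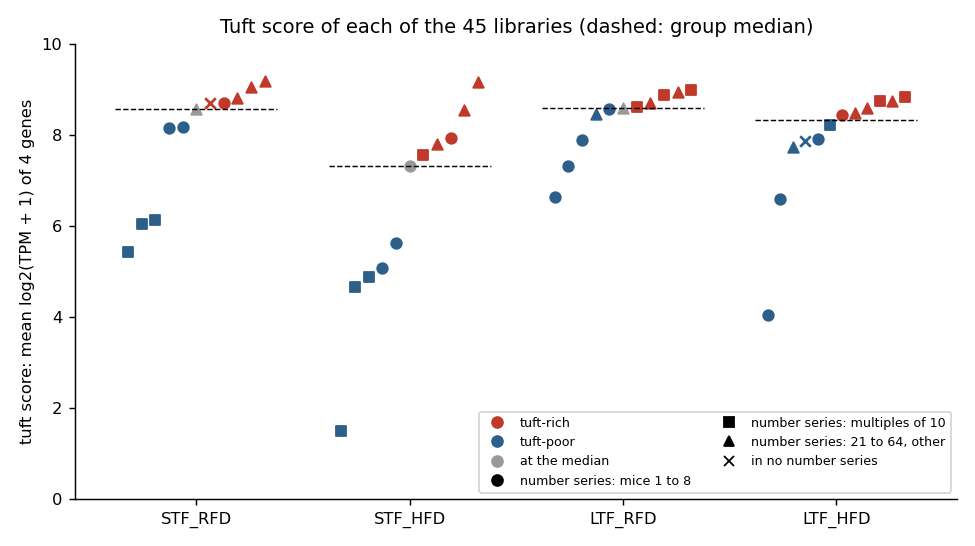
Tuft score of each of the 45 libraries in the 4 groups, as mean log2(TPM + 1) of the 4 score genes, with the dashed line at the group median. Colour gives tuft-rich, tuft-poor or at the median, and the shape gives the number series of the mouse. Rich scores ranged from 7.56 to 9.18 and poor scores from 1.49 to 8.56, with the lowest of both kinds in STF_HFD.

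The score followed the mouse numbers in the labels, which fall into 3 series. Of the 15 libraries with numbers 1 to 8, 3 were tuft-rich and 11 tuft-poor. Among the 15 libraries with the other numbers from 21 to 64, 11 were tuft-rich and 2 tuft-poor. The 13 multiples of 10 were divided 6 to 7 over all groups, but in opposite ways in the 2 sets. Rich and poor libraries among them numbered 3 and 0 in LTF_RFD and 2 and 1 in LTF_HFD. In STF_RFD they numbered 0 and 3, and in STF_HFD 1 and 3. What the series stand for is not given in the labels. According to the methods, mice shared cages and were killed over consecutive days with a cage of each group per day, and no source links mouse numbers to cages or days, so cage, day and tuft content cannot be told apart here. Series and tuft content therefore moved together, and the counts of the main lists are also given with the series as a block. Only 24 of the 42 libraries lie in a series of their group that holds both rich and poor libraries.

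Total reads per library ranged from 189340 to 4690213 with a median of 1633638, and 2 tuft-poor libraries had fewer than 500000. Library properties also differed. Reads of mitochondrial genes made up 4.49% to 13.8% of tuft-rich libraries (median 7.10%) and 4.71% to 41.7% of tuft-poor libraries (median 8.31%), and the difference had an adjusted p of 0.0178 (permutation test within groups, two-sided, Benjamini-Hochberg over 6 properties, threshold 0.05). Ribosomal protein genes took 1.42% ± 0.486 of tuft-rich and 1.72% ± 0.621 of tuft-poor reads (SD, n = 21 each), with an adjusted p of 0.0315 in that test. The transcript AY036118 took more reads in tuft-rich libraries, 9.16% ± 2.55 against 5.97% ± 2.63 (adjusted p = 0.00012, permutation test). Lars2 took 0.0691% ± 0.0320 against 0.0451% ± 0.0392 (adjusted p = 0.0308, permutation test). Total reads had medians of 2016080 in tuft-rich and 1353800 in tuft-poor libraries and missed that threshold (adjusted p = 0.0842, permutation test), and genes detected did too (adjusted p = 0.757, permutation test). Permuted within group and number series, the adjusted p was 0.00246 for AY036118, 0.0398 for ribosomal protein genes, 0.627 for mitochondrial genes and 0.587 for Lars2. The part of these properties in the gene results was not tested beyond the alternatives given with the processing.

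With group as a block, 3959 of 14016 genes (28.2%) had an adjusted p under 0.1, of which 2110 (15.1% of genes tested) were higher and 1849 (13.2%) lower in tuft-rich libraries (quasi-likelihood test of edgeR, p adjusted after Benjamini and Hochberg, n = 21 each). Of the called genes, 3407 (86.06%) moved the same way in all 4 groups. No gene had every rich library above, or every rich library below, every poor library in each of the 4 groups (0.00% of genes tested for each direction). The balance of directions depended on scaling. Higher genes were 53.3% of the calls here, 41.1% with DESeq2's size factors and 88.6% in limma on log2(TPM + 1), where the median log2 fold change of all genes was 0.22 against -0.07 here and 3772 of the 3959 genes kept their direction. Changes are therefore read beside the median of all genes. With the number series as a block within each group, 271 genes (1.93%) were called, 209 higher (1.49%) and 62 lower (0.442%), and 270 of them were among the 3959. Of the 3959 genes, 3934 kept their direction in that fit. With the series of each set beside diet, 314 genes (2.24%) were called, 218 higher (1.56%) and 96 lower (0.685%).

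Nearly all tuft cell genes other than those of the score were higher in tuft-rich libraries. The 6 tuft lists held 65 genes, of which 61 passed the filter on low counts, and 53 of these were higher, none lower and 8 not called, against 15.1% higher among all genes tested. Their median log2 fold change was 1.41. Since tuft genes chose the libraries, this describes the division and is not independent support for it. The summed level of the 61 genes ranged from 28181 to 96864 CPM (reads scaled to library size and normalized between libraries) in tuft-rich libraries, with a median of 57829, and from 3275 to 73938 CPM in tuft-poor libraries, with a median of 23467. The ranges overlapped, and every tuft-poor library had reads of tuft list genes. In the lowest, mouse 80 of STF_HFD, 2370 of the 3275 CPM came from the list of structural and other tuft genes. Its score genes summed to 114 CPM. With the series as a block within group, 31 genes were called, at least 1 from each list, and 61 of 61 were above 0.

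Taste signalling genes had a median log2 fold change of 1.37, with 8 of 10 tested genes higher. Plcb2, the phospholipase C of taste transduction, had 113 to 672.6 CPM in tuft-rich libraries (median 279.3) and 12.4 to 260.9 CPM in tuft-poor libraries (median 90.9), a change of 1.72 on the log2 scale (SE 0.26, adjusted p = 3.93e-05, edgeR's quasi-likelihood test). Each of the 21 tuft-rich libraries lay above the median of the tuft-poor libraries of its own group, although the ranges over all groups overlapped. Itpr2, a calcium channel of the endoplasmic reticulum, had medians of 349.7 and 90.5 CPM and a log2 fold change of 1.58. Ffar3, a receptor for short-chain fatty acids, and Rgs2, a regulator of G protein signalling, changed by 1.44 and 1.29 on the log2 scale. The G protein subunit genes Gnat3 and Gng13 changed by 1.67 and 1.48. Itpr3 and the sweet and umami taste receptor gene Tas1r3 were not called, with log2 fold changes of 0.27 and 0.74.

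Eicosanoid genes were higher in 6 of 8 cases, with a median of 1.20. Alox5, the 5-lipoxygenase that starts leukotriene synthesis, had 424.0 to 1300.4 CPM (median 886.7) in tuft-rich and 14.7 to 845.7 CPM (median 249.0) in tuft-poor libraries, a change of 1.47 on the log2 scale (SE 0.25, adjusted p = 7.02e-05 in the same edgeR test). Its activating protein gene Alox5ap and the leukotriene C4 synthase gene Ltc4s changed by 1.37 and 1.36. Ptgs1, the constitutive cyclooxygenase, changed by 1.41. The inducible Ptgs2 was not called (0.62).

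Among type 2 and acetylcholine genes 5 of 7 were higher. Chat, which makes acetylcholine, had 69.5 to 241.0 CPM (median 127.4) in tuft-rich and 0.877 to 128.9 CPM (median 33.3) in tuft-poor libraries, a change of 1.54 on the log2 scale (SE 0.29, adjusted p = 0.000156, edgeR's quasi-likelihood test). Il17rb, the IL-25 receptor gene, changed by 1.53 and Il13ra1, a receptor chain for IL-13, by 0.49. With the series as a block within group 1 of the 7 was called, and Chat was not (1.21, adjusted p = 0.126, edgeR). Il25 is described with the genes named by the study.

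Signalling genes shared with leukocytes were higher in 17 of 18 cases, with a median of 1.47. Inpp5d, a phosphoinositide phosphatase, had medians of 465.4 CPM in tuft-rich and 114.0 CPM in tuft-poor libraries and a change of 1.67 on the log2 scale (SE 0.26, adjusted p = 4.23e-05, edgeR's quasi-likelihood test). Vav1, Ptpn6 and the phosphoinositide 3-kinase subunit gene Pik3r5 changed by 1.44, 1.47 and 1.65. Ptprc, which encodes CD45, and Siglecf, which encodes the surface marker of the sort, changed by 1.16 and 1.44. Tyrobp (2.09) was not called, and without mouse 31 of LTF_HFD the count fell to 16 of 18, as Coro1a was no longer called.

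All 6 tested transcription factors of the tuft lists were higher (median 1.44). Gfi1b, which marks the tuft lineage, had 40.8 to 249.2 CPM (median 128.2) in tuft-rich libraries and 0 to 170.9 CPM (median 23.99) in tuft-poor ones, a change of 1.72 on the log2 scale (SE 0.32, adjusted p = 0.000146, edgeR's quasi-likelihood test). Spib, Sox9 and Runx1 changed by 1.39, 1.20 and 1.07. With the series as a block within group, 1 of the 6 remained called. Structural genes were higher in 11 of 12 cases (median 1.37). Krt18, the keratin of simple epithelia, changed by 1.37, the calcium pump gene Atp2a3 by 1.496, and Nrep was not called (-0.22).

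Upstream sequence of the genes that moved together was searched for short motifs. RefSeq promoter windows (GRCm38.p6) were matched by symbol for 10290 of the 14016 genes, and the 250 bases before each start were searched on both strands. The octamer ATGCAAAT, a site for POU factors, was found for 6 of 50 tuft list genes with a window (12%), 1.62% of genes tested, 2.32% of genes higher in tuft-rich libraries, 1.42% of those lower and 1.81% of all 27025 genes with a window. Called tuft list genes with it were Hpgds, Kctd12, Nradd, Sucnr1 and Il4ra, with log2 fold changes of 1.04, 1.06, 1.31, 1.30 and 0.63. The windows shown are those of Kctd12, a potassium channel domain protein gene, and the succinate receptor gene Sucnr1, whose windows held no annotated exon. They had medians of 339.4 and 109.2 CPM in tuft-rich and 163.1 and 45.7 CPM in tuft-poor libraries. The octamer, on either strand, is in capitals, and it begins 160 and 48 bases before the start.
Kctd12 (chr14:102982638-102982887, minus strand): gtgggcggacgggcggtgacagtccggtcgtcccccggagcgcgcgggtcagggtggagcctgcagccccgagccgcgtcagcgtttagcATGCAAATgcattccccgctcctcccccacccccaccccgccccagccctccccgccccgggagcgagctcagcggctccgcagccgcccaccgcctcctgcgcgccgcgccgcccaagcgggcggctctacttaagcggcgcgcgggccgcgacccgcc
Sucnr1 (chr3:60081619-60081868, plus strand): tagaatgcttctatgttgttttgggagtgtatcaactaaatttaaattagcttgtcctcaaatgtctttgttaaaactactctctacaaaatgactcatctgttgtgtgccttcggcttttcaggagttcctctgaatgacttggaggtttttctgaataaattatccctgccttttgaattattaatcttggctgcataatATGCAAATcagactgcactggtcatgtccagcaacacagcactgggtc

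Of the 12 higher genes with the smallest p, all but Plcb2 were on no list. Madd, an exchange factor for RAB3 proteins of vesicle release, lies on chromosome 2 from 91137360 to 91183837 (GRCm38, GENCODE M21). It had 22.7 to 181.0 CPM (median 63.6) in tuft-rich and 5.54 to 71.4 CPM (median 24.1) in tuft-poor libraries, a change of 1.57 on the log2 scale (SE 0.22, adjusted p = 2.71e-05, edgeR's quasi-likelihood test). All 21 rich libraries lay above the poor median of their group. Inpp5j, another phosphoinositide phosphatase, had medians of 219.1 and 61.2 CPM and changed by 1.39. Slco4a1, an organic anion transporter, had medians of 332.9 and 132.3 CPM and changed by 1.48. Camta2, a transcriptional activator that binds calmodulin, changed by 1.38, the RNA-binding protein gene Rbm38 by 1.68 and the contractile cell gene Smtn by 1.42. Galk1, the galactokinase, and Chdh, which oxidizes choline, changed by 1.11 and 1.10. Rere, Pbxip1 and Rpp21 changed by 1.09, 1.00 and 0.88.

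**Figure D2:**
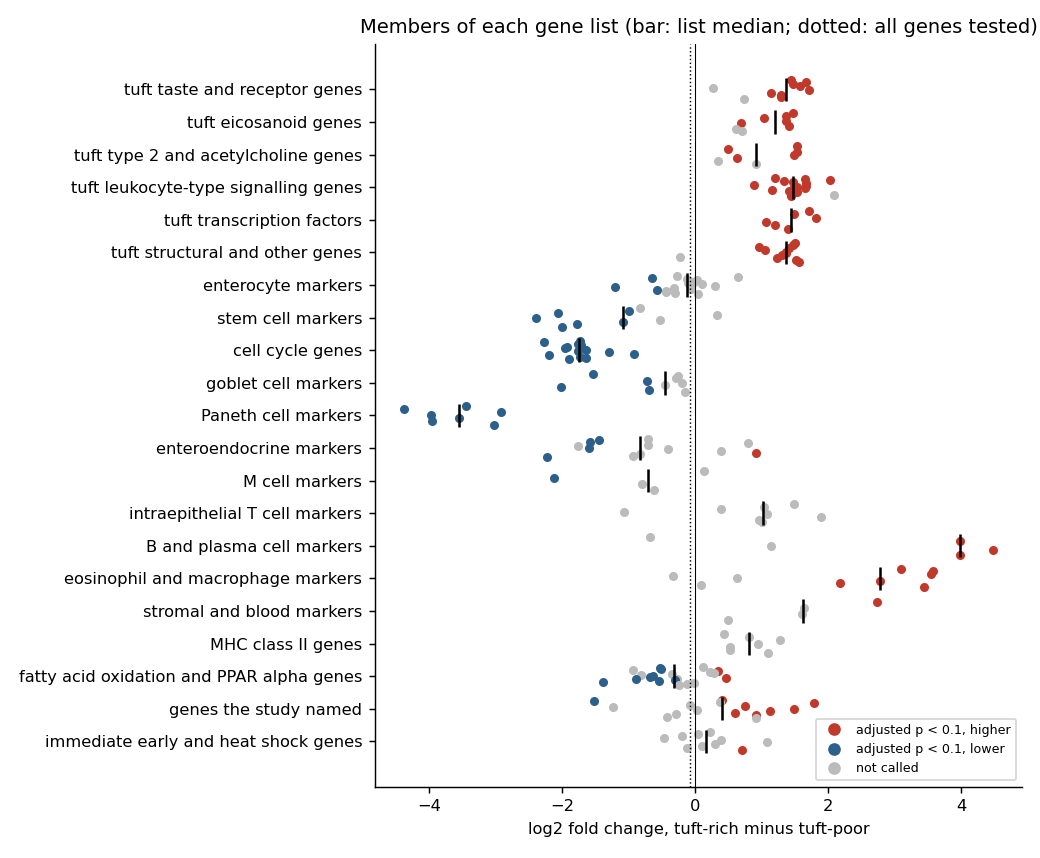
Log2 fold change, tuft-rich minus tuft-poor, of each tested member of 21 gene lists. Red and blue points had an adjusted p under 0.1, grey points did not, bars mark list medians and the dotted line the median of all genes tested (-0.07). Medians of the 6 tuft lists lie between 0.92 and 1.47, cell cycle genes at -1.74 and Paneth cell markers at -3.55.

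Paneth cell markers had the lowest median of the 21 lists. All 7 were lower in tuft-rich libraries, against 13.2% lower among all genes, with a median log2 fold change of -3.55. Their summed level was 57.7 to 62896 CPM in tuft-rich libraries (median 600.1) and 27.3 to 600676 CPM in tuft-poor libraries (median 24041). The lowest poor library, mouse 80 of LTF_HFD, was below every rich one. Summed levels over 10000 CPM were found in 5 of 21 tuft-rich and 16 of 21 tuft-poor libraries. In mouse 80 of STF_HFD, the library with the lowest score, the 7 genes took 32.4% of all reads before normalization between libraries. Defa24, an alpha-defensin, had a median of 193.5 CPM in tuft-rich and 7955 CPM in tuft-poor libraries and a change of -3.97 on the log2 scale (SE 0.76, adjusted p = 0.000188, edgeR's quasi-likelihood test). Mmp7, the protease that activates defensins, had medians of 22.8 and 175.9 CPM and changed by -3.02. Itln1, a lectin of Paneth and goblet cells, changed by -3.55 and the lysozyme gene Lyz1 by -3.96. None of the 21 rich libraries exceeded the poor median of its group for Defa24, Defa17 or Itln1. The defensin genes Defa17, Defa24, Defa26 and Defa36 have near-identical copies, so their reads are uncertain. Without the 2 libraries of lowest score all 7 were lower, as they were with any single library left out, and with the series as a block within group 6 of 7 were (median -4.07).

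Cell cycle genes were lower in tuft-rich libraries without exception, 14 of 14 with a median of -1.74, against 13.2% lower among all genes. Tyms, the thymidylate synthase, had 4.40 to 107.6 CPM (median 13.4) in tuft-rich and 17.8 to 138.1 CPM (median 51.7) in tuft-poor libraries, a change of -1.63 on the log2 scale (SE 0.24, adjusted p = 2.71e-05, edgeR's quasi-likelihood test). Ccna2, the S and G2 phase cyclin, changed by -2.26, Birc5, which acts in chromosome segregation, by -1.73, and the replication clamp gene Pcna by -0.91. Their summed level was 60.8 to 1412 CPM (median 210.6) in tuft-rich and 227.2 to 2096 CPM (median 786.2) in tuft-poor libraries. Under the series block within group 2 of 14 were called, with a median of -1.53, and under the series of each set beside diet 5 were.

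The pentamer CCAAT, to which NF-Y binds, was found on either strand for 11 of 13 cell cycle genes with a window (84.6%), against 40.6% of genes tested, 45.8% of genes lower in tuft-rich libraries, 38.5% of those higher and 37.5% of all genes with a window. It was found for 14 of 50 tuft list genes (28%). The windows of Top2a, a DNA topoisomerase of dividing cells, and of the replication licensing genes Mcm2 and Mcm5 are shown, being the called cell cycle genes of smallest p whose windows held no annotated exon. They changed by -1.73, -1.65 and -1.76. Capitals mark the motif, which occurs 6, 1 and 2 times. A match describes letters in a window and does not show binding.
Top2a (chr11:99024190-99024439, minus strand): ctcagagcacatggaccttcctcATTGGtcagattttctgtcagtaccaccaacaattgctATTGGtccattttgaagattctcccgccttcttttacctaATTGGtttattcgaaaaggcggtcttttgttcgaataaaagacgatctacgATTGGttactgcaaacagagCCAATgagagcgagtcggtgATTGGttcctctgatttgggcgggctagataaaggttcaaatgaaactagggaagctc
Mcm2 (chr6:88898781-88899030, minus strand): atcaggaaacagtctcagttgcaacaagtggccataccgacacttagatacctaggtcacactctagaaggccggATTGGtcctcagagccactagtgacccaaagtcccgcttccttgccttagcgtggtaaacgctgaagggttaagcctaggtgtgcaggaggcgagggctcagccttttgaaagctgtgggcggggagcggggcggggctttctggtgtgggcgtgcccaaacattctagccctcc
Mcm5 (chr8:75109259-75109508, plus strand): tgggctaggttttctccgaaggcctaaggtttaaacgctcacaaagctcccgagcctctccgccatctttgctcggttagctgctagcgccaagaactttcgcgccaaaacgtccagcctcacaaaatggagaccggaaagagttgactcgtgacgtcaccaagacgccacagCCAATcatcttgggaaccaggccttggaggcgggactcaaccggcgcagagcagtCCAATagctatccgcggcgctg

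Stem cell markers were lower for 6 of 9 genes (median -1.08), against 13.2% lower among all genes. Olfm4, a marker of crypt base columnar cells, had 0 to 1142 CPM (median 121.9) in tuft-rich and 0 to 5797 CPM (median 723.3) in tuft-poor libraries, a change of -2.39 on the log2 scale (SE 0.58, adjusted p = 0.00231, edgeR's quasi-likelihood test). Smoc2 changed by -1.78 and Gkn3 by -2.05. The stem cell receptor gene Lgr5 was not called (0.32). Without mouse 1 of LTF_RFD, or without mouse 20 of STF_RFD, 4 of the 9 were called, and with the series as a block within group none was, with a median of -1.07.

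Enterocyte markers differed less. Counts in this paragraph are read beside the 13.2% lower and 15.1% higher among all genes tested. Of 18 enterocyte markers, 3 were lower, near that share, and none was higher. The median was -0.12, close to that of all genes, while limma on log2(TPM + 1) called 3 higher and none lower. Fabp2, a fatty acid binding protein, had medians of 1147 CPM in tuft-rich and 1957 CPM in tuft-poor libraries and changed by -1.20, and Mttp, which loads lipid onto apolipoprotein B, by -0.57. Their summed level had medians of 18048 CPM in tuft-rich and 20583 CPM in tuft-poor libraries, and both carried 7546 CPM or more in each library. Goblet cell markers were lower for 4 of 9 genes (median -0.45), namely Spink4 (-2.02), Agr2 (-1.54), Guca2a (-0.73) and Tff3 (-0.69), while the mucin gene Muc2 was not called (-0.19). The Tff3 call (adjusted p = 0.0994, edgeR) was lost in 29 of the 42 fits that left out 1 library. Of 13 enteroendocrine markers, Chga (-1.45), Chgb (-1.58), Tph1 (-2.23) and Neurod1 (-1.60) were lower. Chgb was no longer called in 22 of the 42 fits that left out 1 library. Without mouse 8 of STF_HFD, which had 6561 CPM of these markers, none of the 4 was called. Sct, the secretin gene, was higher by 0.92, with 21 of 21 rich libraries above the poor median of their group. Of 4 tested M cell markers, Ccl9 was lower (-2.12). With the series as a block within group, none of the enterocyte, goblet, enteroendocrine or M cell markers was called. Gp2, which defines M cells, was below the filter, with reads in 2 tuft-rich and 4 tuft-poor libraries.

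Markers of immune cells were uneven between libraries. The gate required EpCAM, an epithelial surface protein that plasma cells and macrophages lack. The plasma cell genes Igkc, Jchain and Igha were higher in tuft-rich libraries by 4.48 (SE 1.34), 3.99 (SE 1.30) and 3.98 (SE 1.38) on the log2 scale, with adjusted p of 0.0128, 0.0222 and 0.0329 (edgeR's quasi-likelihood test). The summed B and plasma cell markers had medians of 166.4 CPM in tuft-rich and 21.4 CPM in tuft-poor libraries and exceeded 100 CPM in 11 and 6 of 21 libraries, with at most 7152 and 2383 CPM. The groups differed. Medians of this sum were 206.8 in tuft-rich and 24.2 CPM in tuft-poor libraries of LTF_HFD and 235.3 and 25.2 CPM in LTF_RFD, but 3.78 and 4.03 CPM in STF_HFD, and 3.53 and 729.8 CPM in STF_RFD, the opposite order. Only 11, 10 and 9 of the 21 tuft-rich libraries lay above the poor median of their group for Igkc, Jchain and Igha. Without mouse 70 of LTF_HFD, Igha was no longer called. In limma on log2(TPM + 1) none of the 3 was, and with the series as a block within group 1 was, Igkc. Of the eosinophil and macrophage markers 6 of 9 were called higher, against 15.1% of all genes. Among them were C1qa (3.57), C1qb (3.55), Lyz2 (3.44) and Adgre1 (3.10). These calls rested on mouse 31 of LTF_HFD, with 2368 CPM of these markers, since none of the 6 was called without it. The summed median was lower in tuft-rich (13.6 CPM) than in tuft-poor libraries (17.5 CPM). Eosinophil genes Epx, Prg2 and Il5ra were below the filter. None of 8 intraepithelial T cell markers and none of 7 MHC class II genes was called. Of 4 stromal and blood markers, Col3a1 was called (2.74), and not without mouse 31 of LTF_HFD, mouse 60 of STF_HFD or mouse 84 of STF_RFD.

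**Figure D3:**
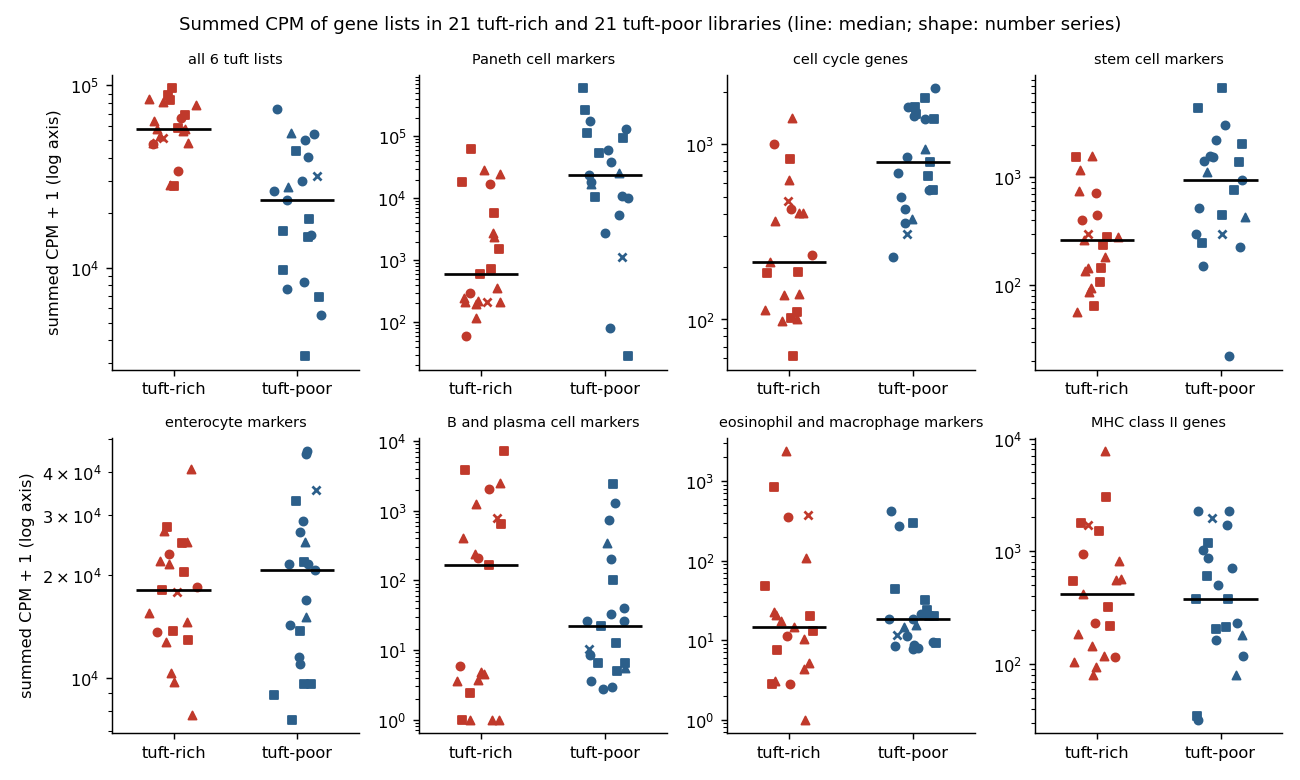
Summed CPM + 1 of 8 gene lists on a log axis in the 21 tuft-rich and 21 tuft-poor libraries, each point 1 library, shapes the number series and lines the medians. Paneth, cell cycle and stem cell sums are shifted up in tuft-poor libraries, enterocyte sums overlap, plasma cell sums exceed 100 CPM in 11 tuft-rich and 6 tuft-poor libraries, and macrophage sums in 5 and 3.

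The 12 lower genes with the smallest p came from several cell functions. Far2, a fatty acyl-CoA reductase, had 9.81 to 302.3 CPM (median 68.9) in tuft-rich and 55.3 to 382.7 CPM (median 158.7) in tuft-poor libraries, a change of -1.44 on the log2 scale (SE 0.21, adjusted p = 2.71e-05, edgeR's quasi-likelihood test). Golm1, a Golgi membrane protein gene, had medians of 76.7 and 168.4 CPM and changed by -1.42. The mitochondrial chaperonin gene Hspd1 had medians of 116.8 and 309.1 CPM and changed by -1.33, and Dld, a subunit of the pyruvate dehydrogenase complex, by -0.91. Canx, a chaperone of the endoplasmic reticulum, the sphingolipid synthesis gene Sptssa, the lysosomal Lamp2 and Sypl changed by -0.82, -0.99, -1.18 and -0.92. Defa36, Defa26 and Defa-ps6 changed by -10.32, -4.14 and -4.41. Defa36 had at most 6 reads in a tuft-rich library and a median of 0.620 CPM in tuft-poor libraries, so its fold change rests on a few poor libraries, up to 3718 CPM. With the series as a block within group, Defa36, Lamp2, Canx and Sypl were not called, with adjusted p of 0.225, 0.116, 0.164 and 0.135 (edgeR).

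Of 20 fatty acid oxidation and PPAR alpha genes, 8 were lower and 2 higher, with a median of -0.32. Among all genes tested 13.2% were lower and 15.1% higher. Etfa, an electron transfer flavoprotein subunit, had 75.0 to 291.2 CPM (median 141.8) in tuft-rich and 94.7 to 411.2 CPM (median 210.7) in tuft-poor libraries, a change of -0.68 on the log2 scale (SE 0.14, adjusted p = 0.000398, edgeR's quasi-likelihood test). Hadh, Hadhb and Acadvl, enzymes of beta-oxidation, changed by -0.89, -0.55 and -0.50. Etfb, the partner subunit of Etfa, was higher (0.46). With limma on log2(TPM + 1), 4 were higher and 2 lower, and with 1 library left out the lower count ranged from 6, without mouse 32 of LTF_HFD or mouse 1 of LTF_RFD, to 11. No member was called with the series as a block within group. Of the 10 immediate early and heat shock genes, only Junb was called (0.71).

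The study named 15 genes in its diet comparison, and these are given here by tuft content. Of the 15, 7 were higher and 1 was lower in tuft-rich libraries, with a median of 0.41. Among all genes tested 15.1% were higher and 13.2% lower. The study chose them on these samples, so they are not independent evidence of a direction. Il25, the cytokine through which tuft cells activate type 2 innate lymphoid cells, had 4.35 to 60.0 CPM (median 19.2) in tuft-rich and 0 to 30.6 CPM (median 5.68) in tuft-poor libraries. It changed by 1.49 on the log2 scale (SE 0.36, adjusted p = 0.00184, edgeR's quasi-likelihood test), near the 1.41 of the tuft lists, and 21 of 21 rich libraries were above the poor median of their group. Gabbr1, a metabotropic GABA receptor subunit, had 3.53 to 41.0 CPM (median 11.7) in tuft-rich and 0 to 15.6 CPM (median 2.90) in tuft-poor libraries, a change of 1.78 on the log2 scale (SE 0.37, adjusted p = 0.000431, same edgeR test). It was the only one of the 15 still called with the series as a block within group (1.86, adjusted p = 0.0783, edgeR). The ionotropic GABA receptor genes Gabrg3 (-1.23) and Gabrb1 (-0.07) were not called and had few reads. The transcriptional repressor gene Mxd1 changed by 1.13, the neuroserpin gene Serpini1 by 0.92, the ubiquitin-binding N4bp1 by 0.61 and B2m, the light chain of MHC class I, by 0.41. Tslp, another epithelial cytokine, had medians of 7.81 and 3.60 CPM and was not called (0.92, adjusted p = 0.163, edgeR). Coq8a, which acts in coenzyme Q synthesis, was the lower one, with 0.731 to 114.6 CPM (median 20.5) in tuft-rich and 0 to 197.8 CPM (median 90.6) in tuft-poor libraries and a change of -1.51 on the log2 scale (SE 0.36, adjusted p = 0.00206, edgeR's quasi-likelihood test). Ppargc1a (-0.29), Extl3 (0.38), Smcr8 (-0.42) and Klhdc3 (0.02) were not called. Without the 2 libraries of lowest score, 3 of the 15 were higher and 1 lower, and Serpini1, N4bp1 and B2m were among those that missed the threshold. Without mouse 80 of STF_HFD or mouse 10 of STF_RFD, 4 were higher, and N4bp1 was not called in 26 of the 42 fits that left out 1 library.

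**Figure D4:**
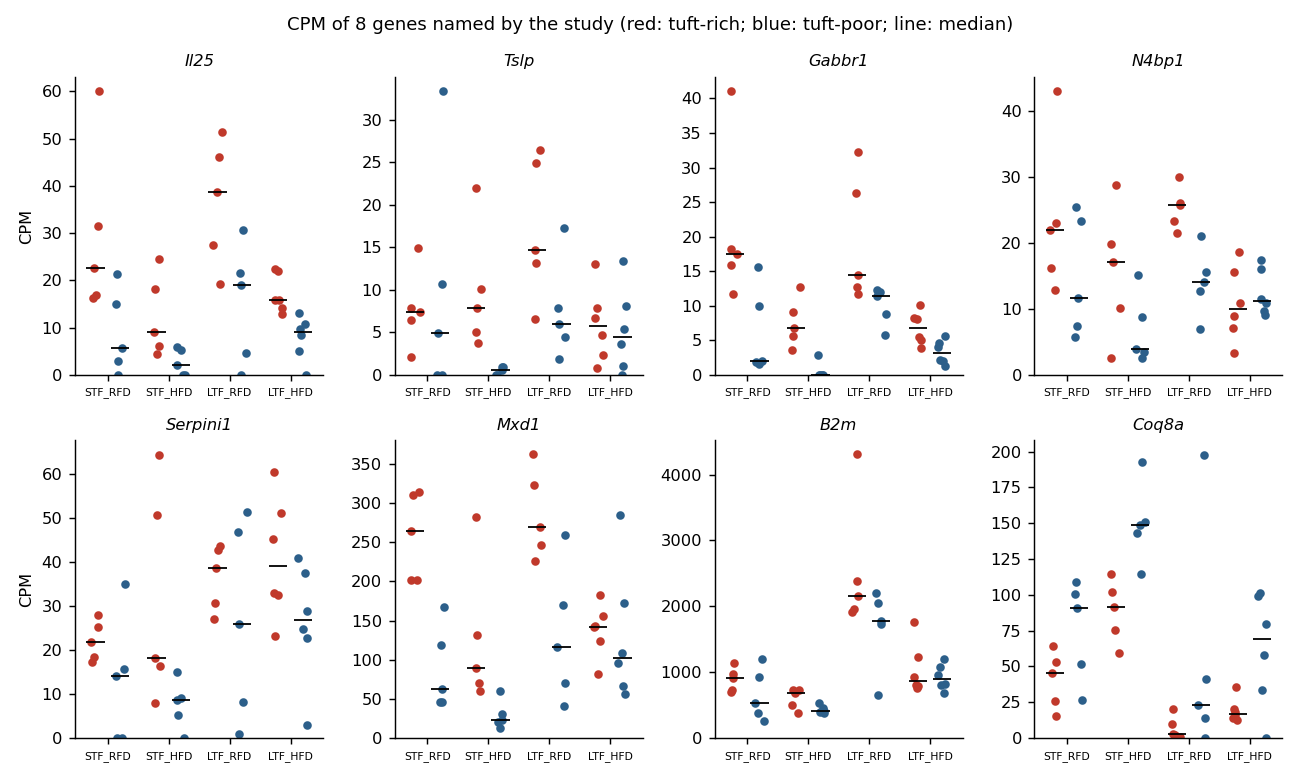
CPM of 8 genes named by the study in the tuft-rich (red) and tuft-poor (blue) libraries of each group, with lines at the medians. Il25, Gabbr1 and Mxd1 medians are higher in the rich libraries of all 4 groups, and Coq8a medians are higher in the poor ones.

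For Il25, the tuft-rich and tuft-poor means were 29.4 ± 18.2 and 8.98 ± 8.87 CPM in STF_RFD (SD, n = 5 each), and 12.4 ± 8.61 and 2.62 ± 2.80 CPM in STF_HFD. In LTF_RFD they were 36.5 ± 13.2 and 15.2 ± 12.6 CPM (n = 5 each), and in LTF_HFD 17.2 ± 4.04 and 7.79 ± 4.64 CPM (n = 6 each). The means had the same order in each group, and the ranges overlapped in each. They overlapped least in LTF_HFD, where the lowest rich value was 12.8 CPM and the highest poor value 13.0 CPM.

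The score was also compared between diets, and whether it accounts for diet differences in Il25 or Tslp was not tested. The study measured these transcripts by RT-qPCR in sorted tuft cells, relative to Dclk1, which is a score gene, and also to Gapdh. It reported both lower on HFD at each feeding time. Its flow cytometry found no significant diet effect on the tuft share of epithelial cells. Absolute tuft cell numbers were reported lower on HFD. The score is the quantity that divided the libraries, but within groups, so the division did not use its level between diets. It measures RNA of 4 genes and is not a count of tuft cells. In the STF set the score was 6.37 ± 2.25 on HFD and 7.91 ± 1.36 on RFD (SD, n = 11 each). The difference of -1.53 missed a threshold of 0.05 (p = 0.0632, adjusted p = 0.126 over the 2 sets, permutation test, two-sided). With the score taken from CPM the difference was -1.49, and its unadjusted p of 0.0246 passed that threshold (permutation test). Over the libraries in a number series, the plain TPM difference was -1.45, with p = 0.0502 when labels were permuted within series (permutation test). In the LTF set the score was 7.85 ± 1.36 on HFD (n = 12) and 8.33 ± 0.745 on RFD (n = 11). There p was 0.360 in the permutation test, and 0.253 when permuted within the number series. The difference between rich and poor libraries was also compared between the diets. Of 14016 genes 1 (0.00713%) was called, Cavin2, a gene of caveolae, with an interaction of 8.97 (SE 1.69, adjusted p = 0.0447, edgeR's quasi-likelihood test). It had no read in 14 of 21 tuft-rich and 12 of 21 tuft-poor libraries. Between the sets none was called (0.00% of genes), 762 had an unadjusted p under 0.05, DESeq2 called 1, and Hsp90aa1, a cytosolic chaperone, had the smallest p.

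**Figure D5:**
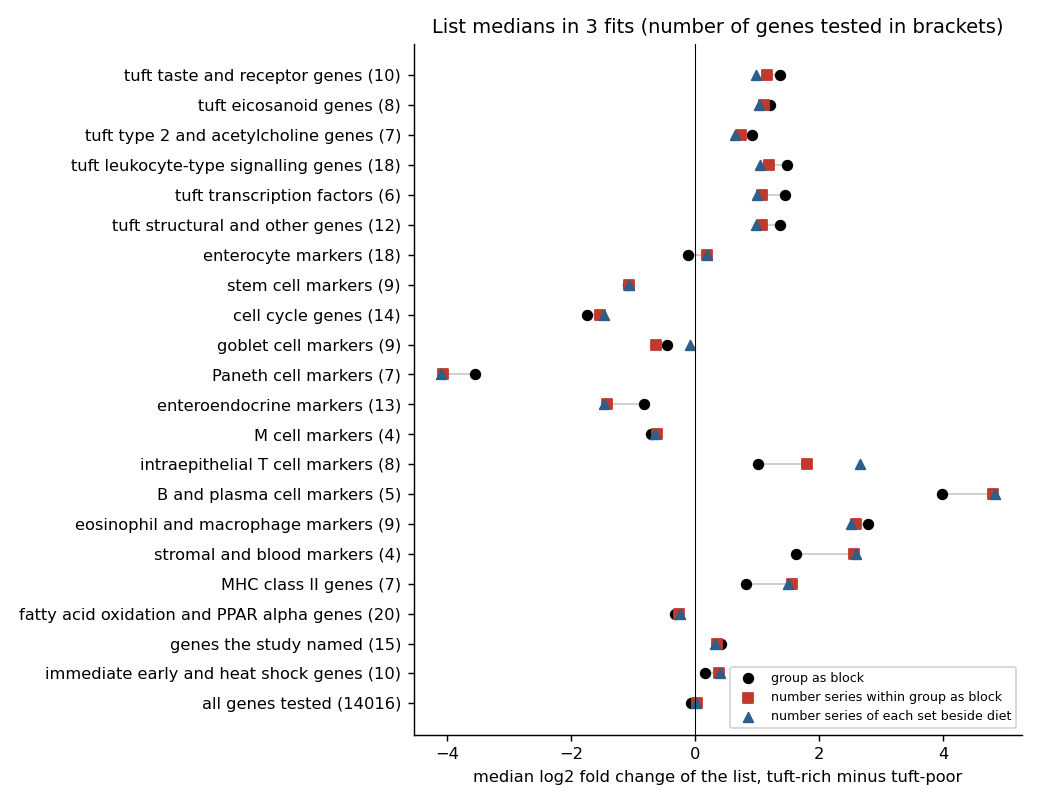
Median log2 fold change of each list, with the number of tested genes in brackets, in 3 fits: with group as a block, with the number series within group as a block, and with the series of each set beside diet. The tuft lists stay above 0 and the Paneth, cell cycle and stem cell lists below 0 in all 3 fits, while the enterocyte list moves from -0.12 to 0.18 and 0.19.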

How the data were processed

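RNA of sorted Siglec-F+ cells was made into libraries with Smart-seq2 and Nextera XT, trimmed with Cutadapt 1.15, aligned with STAR 2.6.0 and quantified with RSEM by the authors, per the labels and methods. The authors deposited expected counts, which need not be whole, and TPM values for 47729 genes. Of the expected counts above 0, 8.79% were not whole, and they were rounded here. In each unit 24 columns belonged to no sample and were not used. The authors' weighting by deconvolution was not repeated.

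The members and gene lists were chosen with earlier results of these data known. Genes with more than 5 reads in at least 6 libraries and a unique symbol were kept (14020), and the 4 score genes were removed after the fit, which left 14016. Rich and poor libraries were compared with group as a block by edgeR 4.0.16 (quasi-likelihood test, TMM scaling, R 4.3.3), with a Benjamini-Hochberg adjusted p under 0.1 called. CPM values are TMM-normalized. The tests are two-sided. Named genes were the 12 of smallest p in each direction, up to 4 called genes of each list, the genes named by the study and the interaction genes with the smallest p. The smallest p were taken among called genes of the same sign in all 4 groups, clone names left out. Other members named in the text were chosen after their values were seen. Alternatives used DESeq2 1.42.0, limma 3.58.1 on log2(TPM + 1), other filters, covariates and blocks, and left out libraries or groups. Those chosen after seeing the data are named so with the dependence on processing. Permutation tests drew 100000 resamples in Python 3.11.15, with a threshold of 0.05. The fits were tested on simulated data. Each library was 1 mouse, and the total reads per library set the precision of its low counts. A few members of the lists are counted but not reported here by name.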

Additional observations from a re-analysis of the deposited data

Results flagged for a closer look

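A sample stood far from the others of its kind in 9 of 56 checks of a library property within the rich or poor libraries of a group (Dixon's test), and chance gives about 1 in 20. Mitochondrial reads were 10.4% in mouse 33, a tuft-rich LTF_HFD library, 21.2% in mouse 6, a tuft-poor LTF_HFD library, and 14.2% in mouse 4, a tuft-poor LTF_RFD library. Ribosomal protein genes took 0.825% in tuft-poor mouse 65 of LTF_HFD, 2.33% in tuft-poor mouse 1 of LTF_RFD and 1.05% in tuft-rich mouse 23 of STF_RFD. Lars2 took 0.0550% in tuft-rich mouse 64 of STF_HFD and 0.176% in tuft-poor mouse 4 of STF_RFD. The score of mouse 80 of STF_HFD was 1.49, though that check used the values that had divided the libraries. The difference between tuft-rich and tuft-poor libraries in Cavin2 differed between the diets by 8.97 on the log2 scale, from a highest level of 38.8 CPM in tuft-rich and 14.9 CPM in tuft-poor libraries.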

How the results depend on the processing

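The count of 3959 genes was 271 with the number series as a block within group, 2296 without the STF_HFD group and 314 with the series of each set beside diet, a fit chosen after seeing the data. With 1 library left out it ranged from 3359, without mouse 1 of LTF_RFD, to 4536, without mouse 3 of LTF_RFD. Leaving out the 2 libraries of lowest score (3252) or those with over 20% mitochondrial reads (3033) was also chosen after seeing the data. The diet interaction called 6 genes in DESeq2, 131 with no filter on low counts and 0 with the series block. Under that block 265 genes had an unadjusted p under 0.05, fewer than the 1 in 20 that chance would give. The set interaction called 1 in DESeq2 and 20 with no filter. The Lars2 difference was 0.0211 percentage points without the libraries of low total (adjusted p = 0.0507, permutation test). Over the 20 tuft-rich and 20 tuft-poor libraries in a number series, plain mean differences were 0.0283 percentage points for Lars2 and -6.10 for mitochondrial reads. Their permutation within group and series rested on only 24 libraries, so these means are not differences inside a series. These results missed the threshold of 0.05 set for the permutation tests. The STF score difference was -1.49 from CPM, and passed 0.05 with an unadjusted p = 0.0246 (permutation test). The cause was not tested.

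Of 1552 values of the 97 named genes under 16 alternatives, 27 changed sign, none of them among the 1440 values of called genes, of which 224 missed the threshold. The genes that changed sign were not called. Gabrb1 was 0.0094 and 0.10 in limma with pseudocounts of 1 and 0.1, 0.019 with no filter, 0.68 with the series block, 0.63 with total reads as a covariate, 0.26 without low totals and 0.22 on the continuous score. It was 0.34 without LTF_HFD, 0.18 without STF_RFD, 0.31 with the series beside diet and 0.15 without high mitochondrial reads. Klhdc3 was -0.0826 with DESeq2's size factors and in DESeq2, -0.0817 with the covariate, -0.21 with the series block, -0.052 without low totals and -0.014 on the continuous score. It was -0.031 without LTF_RFD, -0.13 without STF_RFD, -0.024 without the 2 lowest scores, -0.16 with the series beside diet and -0.044 without high mitochondrial reads. Ppargc1a was 0.073 in limma, 0.34 with the series block and 0.45 with the series beside diet. Smcr8 was 0.015 in limma and 0.14 without LTF_HFD. No paired analysis was possible because tuft-rich and tuft-poor libraries of a group come from different mice, each with its own number. Low counts limit genes such as Gabrb1 and Cavin2.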
